A study of Mus musculus with 31 samples.

Results

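The interferon response genes described here are 39 genes chosen by name: 4 transcription factors of the pathway (Stat2, Irf1, Irf7, Irf9) and 35 genes that cells switch on in response to interferon. They were followed through 21 RNA sequencing libraries, of cells sorted from the mouse dentate gyrus by a stem cell label or of cultured mouse neural stem cells. Each of the 39 was listed in every library, among 24062 gene names in the tables from mice and 24322 in those from culture. The rule is a list of names with no threshold on a measured value, although the list was drawn up with earlier results of these data known.

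The mice were C57BL/6 carrying Nestin-EGFP, a transgene that labels neural stem cells and those of their offspring that still hold the fluorescent protein. They received water or midazolam (MDZ, a sedative of the benzodiazepine class that acts through the GABA-A receptor) at 10 mg/kg, by injection into the peritoneum, on postnatal days 7, 8 and 9. EGFP-positive cells of the hippocampal dentate gyrus were sorted at postnatal day 10 (Control P10 and MDZ P10, 50000 cells of 1 mouse in a library) or at 8 weeks, when a library pooled about 30000 cells of 3 to 5 mice. The groups of that age were Control 8w, MDZ 8w and, for exposed animals housed with a running wheel, RUN MDZ 8w. The remaining 6 libraries were long-term cultures of wild type ICR cortex cells, begun at embryonic day 11 and taken past 20 passages, that received an M2rtTA lentivirus alone (Control culture) or with a Flag-tagged Egr1 lentivirus (Egr1 culture). Each group had 3 libraries, no group of running mice without midazolam was among the samples, and nothing in the labels says that cultured samples were separate cultures, so that p-values there may measure technical spread only.

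Type I interferons bind the receptor formed by Ifnar1 and Ifnar2, whose kinases Jak1 and Tyk2 activate Stat2. Complexes that hold Stat2 and Irf9 bind the interferon-stimulated response element (ISRE) in promoters, a further element of interferon-induced promoters is called GAS, and Irf1 and Irf7 are transcription factors that the response itself raises. The products sense foreign RNA or DNA, cut or edit RNA, block entry or release of viruses, and tag proteins with the ubiquitin-like modifier Isg15. Many cell types keep a low level of these genes without infection, and stem cells are known for holding some of them high.

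The promoters below are those of the member that rose most in culture (Isg15), of the only other member that rose there (Irf1), and of 4 that fell there (Bst2, Ifit1, Gbp3, Rsad2). They show ISRE letters in front of a gene that rose and of 4 that fell. Each line gives the 150 bases before the gene's start on the gene's own strand, from RefSeq with the GRCm38.p6 build. The promoter start used for Gbp3 lies inside the gene as RefSeq bounds it (from chr3:142560016). The last bases of its line therefore fall within the gene. Capitals mark letters that match, on either strand, GAAA, any 2 bases and GAAA again (the core of an ISRE), TTCNNNGAA (the core of a GAS element) or, in Irf1 alone, GCGNGGGCG (a pattern of the Egr type, bound by Egr1 and related zinc finger proteins). Matches that overlap were merged.
Isg15: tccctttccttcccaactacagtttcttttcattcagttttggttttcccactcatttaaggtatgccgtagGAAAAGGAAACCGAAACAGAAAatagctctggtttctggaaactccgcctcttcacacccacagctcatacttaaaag
Bst2: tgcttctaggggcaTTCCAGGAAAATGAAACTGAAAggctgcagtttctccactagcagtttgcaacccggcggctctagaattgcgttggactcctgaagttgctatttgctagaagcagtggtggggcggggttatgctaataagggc
Ifit1: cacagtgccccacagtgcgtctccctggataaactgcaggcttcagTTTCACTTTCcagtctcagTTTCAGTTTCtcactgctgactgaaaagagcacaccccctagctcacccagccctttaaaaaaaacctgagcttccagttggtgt
Gbp3: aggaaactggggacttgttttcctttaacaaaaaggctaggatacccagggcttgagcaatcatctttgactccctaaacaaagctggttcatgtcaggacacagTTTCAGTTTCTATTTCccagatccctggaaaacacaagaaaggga
Rsad2: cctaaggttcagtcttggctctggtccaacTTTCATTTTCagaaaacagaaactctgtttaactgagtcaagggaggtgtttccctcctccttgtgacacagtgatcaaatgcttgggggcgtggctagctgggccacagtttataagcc
Irf1: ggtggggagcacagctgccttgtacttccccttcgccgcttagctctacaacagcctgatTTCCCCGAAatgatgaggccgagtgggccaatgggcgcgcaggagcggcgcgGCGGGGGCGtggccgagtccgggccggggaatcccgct
These stretches lie at chr4:156200819-156200968 (Isg15, minus strand), chr8:71537473-71537622 (Bst2, minus), chr19:34640739-34640888 (Ifit1, plus), chr3:142559894-142560043 (Gbp3, plus), chr12:26456453-26456602 (Rsad2, minus) and chr11:53769864-53770013 (Irf1, plus). Isg15 holds 3 overlapping ISRE matches between 78 and 57 bases before its start. Bst2 holds 2 that overlap a GAS match. Irf1 holds a GAS match and, 38 to 30 bases before its start, the Egr-type match.

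RefSeq's promoter table, which runs from 250 bases before a start to 50 after it, had an entry for 29 of the 39 members. The ISRE core was found in 15 of these 29 genes (51.7%), against 3.99% of all 27025 genes with an entry and 3.44% of all 32851 promoters of that length. TTCNNNGAA was found in 9 (31.0%, against 9.55% of genes and 8.3% of promoters) and GCGNGGGCG in 1 (3.45%, against 6.27% and 5.55%). A match is a description of letters, and binding at these promoters was not analysed here.

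Values at P10 are FPKM (fragments scaled by transcript length and by library size) and those at 8 weeks and in culture are TPM (a transcript's share of its library, scaled to a fixed total), so levels were compared only within each of the 3 sets. Tests used limma on log2(value + 1) with Benjamini-Hochberg adjustment over all genes whose mean was at least 1 in that set, and the threshold was an adjusted p of 0.05. Changes are given on that log2(value + 1) scale, with their standard error, and understate the change of low genes. The filter passed 21 members at P10, 37 at 8 weeks and 30 in culture. The number of genes above 0 in a library was 17623 to 18470 at P10, 15537 to 15998 in culture, 11163 to 11397 in Control 8w and 15382 to 16709 in the other 8-week groups. Control 8w replicates 2 and 3 differed less than any other 8-week pair, with 8 genes above 5 TPM in one and listed at 0 in the other against 2141 and 2261 for either of them and replicate 1, so their mean entered as 1 sample and Control 8w had n = 2. The summed level of 10 radial glia and stem cell markers was 1944 to 2555 FPKM at P10, 2221 to 5078 TPM at 8 weeks and 5038 to 6146 TPM in culture. Markers of other brain cells were present in the sorted libraries too.

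**Figure D1:**
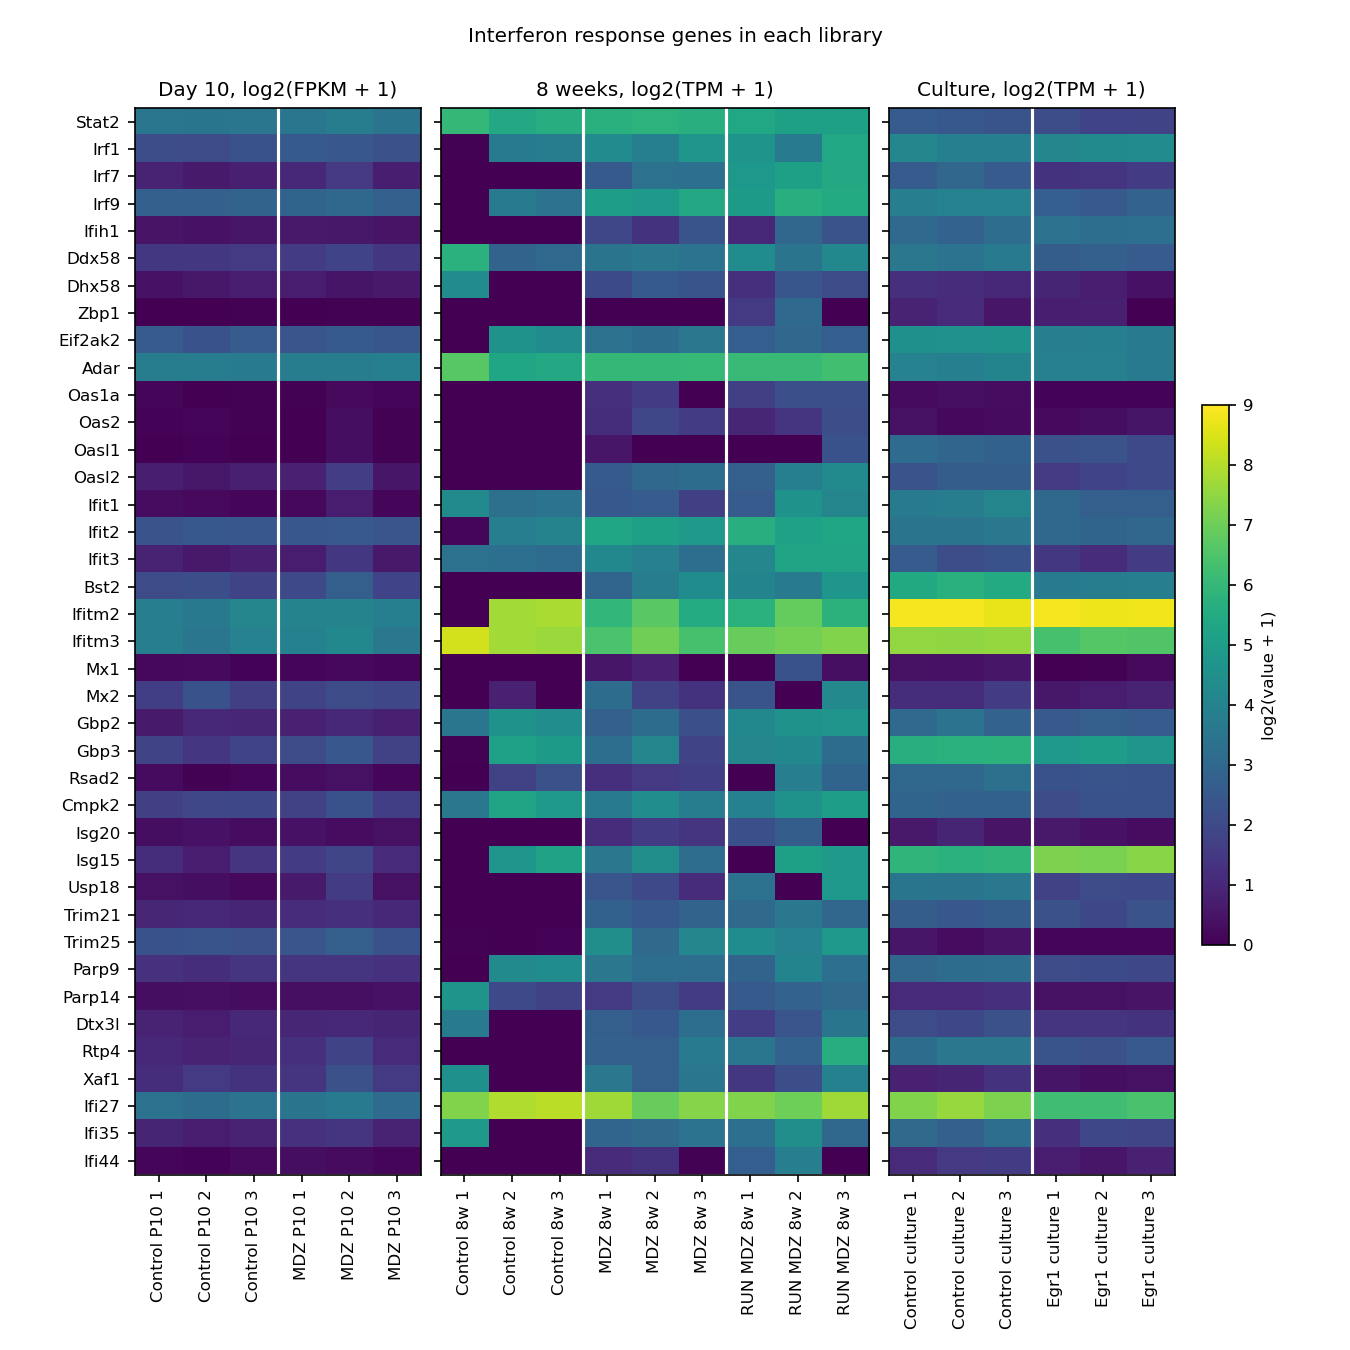
Level of the 39 interferon response genes (rows, ordered by role) in the 21 libraries (columns), as log2(FPKM + 1) at day 10 and log2(TPM + 1) at 8 weeks and in culture. The colour scale runs from 0 to 9, and white lines part the groups. Ifitm2 was the highest member at P10 and in culture, and the Control 8w columns hold 14 members at 0 in all 3 libraries.

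The first comparison asked how these genes stand in cultured stem cells when Egr1, a zinc finger transcription factor, is added. Egr1 itself was at 360.7, 284.7 and 344.3 TPM in the 3 Control culture libraries and at 1769, 1390 and 1291 TPM in the 3 Egr1 culture libraries, and the values do not separate added from native Egr1. Of the 30 members tested, 25 fell and 2 rose, against 29% of all 12402 genes tested that fell and 15.2% that rose. The change was below 0 in 27 of the 30 and above 0 in 3, against 62.6% and 37.4% of all genes. Bst2, which tethers virus particles to the cell surface, fell most, by 1.81 on the log2 scale, and Isg15 rose by 1.44. The median change of the 30 members was -0.77, against -0.10 over all genes. With no filter all 39 members entered the test, of which 28 fell and 1 rose, with a median of -0.71. Over all genes in that setting the median was -0.03, and 5706 passed, of which 37.8% were higher. In 25 tested members every Egr1 culture library lay below every Control culture library and in 3 every one lay above, against 37.1% and 18.4% of all genes.

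**Figure D2:**
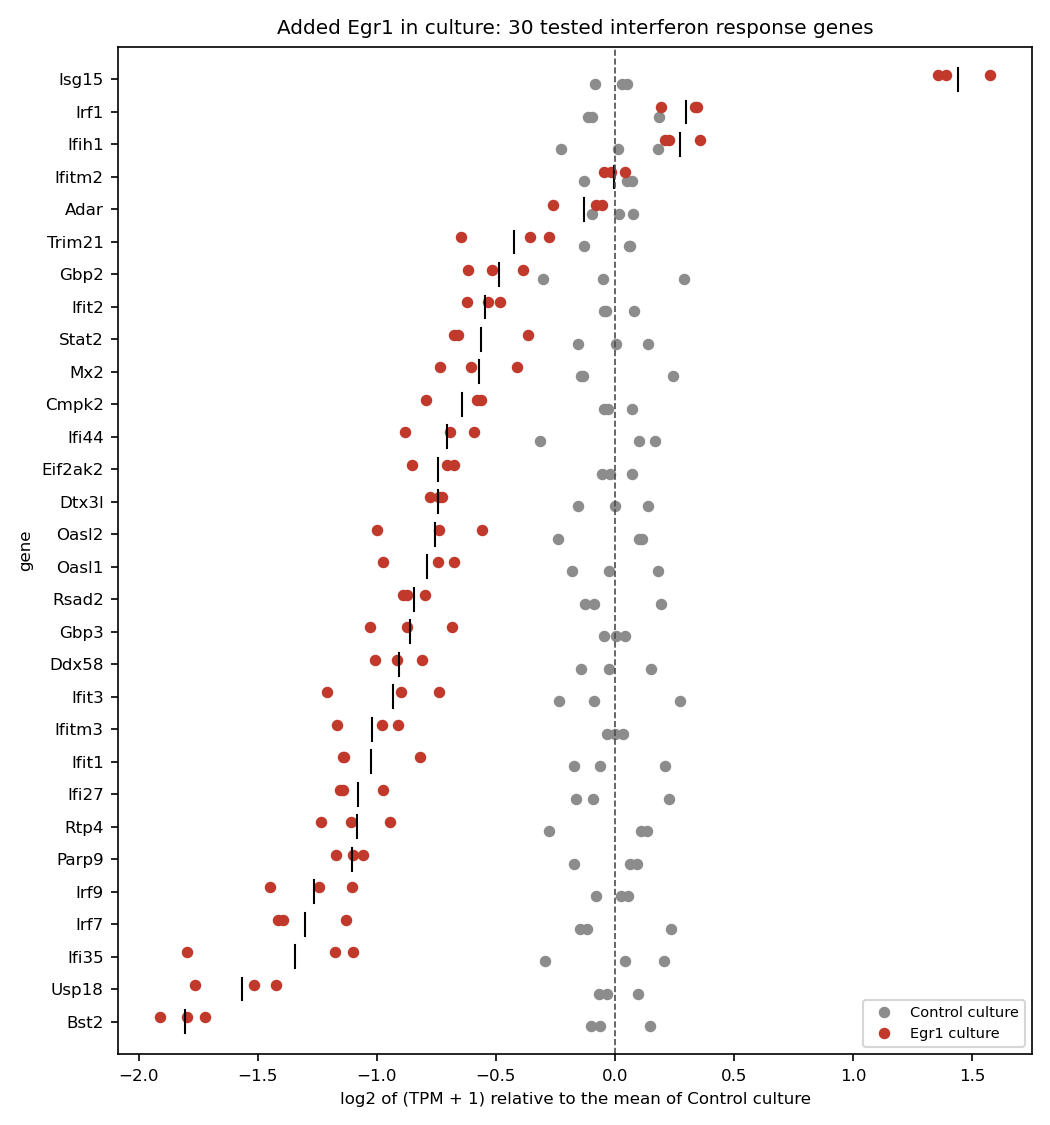
Each of the 30 tested members in culture, as log2 of (TPM + 1) in each library relative to the mean of the 3 Control culture libraries (grey, Control culture; red, Egr1 culture; black bar, fitted change). Genes are ordered by the fitted change, from -1.81 (Bst2) to 1.44 (Isg15), and most red points lie left of the grey ones.

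Among the transcription factors, 3 fell and 1 rose. Irf9, the DNA-binding partner of Stat2, was at 13.59, 14.7 and 15.02 TPM in Control culture and 5.52, 4.651 and 6.187 TPM in Egr1 culture. Irf7, which drives late interferon production, was at 5.173, 6.879 and 5.056 TPM against 1.516, 1.551 and 2.066 TPM. For both genes all Egr1 libraries lay below all controls, with changes of -1.26 ± 0.11 (adjusted p = 4.8e-05) for Irf9 and -1.30 ± 0.15 (adjusted p = 2e-04) for Irf7. Stat2 fell by 0.56 (adjusted p = 0.011), from 4.035 to 5.184 TPM in the controls to 2.511 to 3.353 TPM.

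Irf1 moved the other way and by little. Its level was 16.99, 13.8 and 13.62 TPM in Control culture and 17.09, 18.97 and 19.09 TPM in Egr1 culture. The groups did not overlap, but the highest control lay just under the lowest Egr1 library. The change was 0.30 ± 0.10 with an adjusted p of 0.0446, and it no longer passed when any of 5 of the 6 libraries was left out (adjusted p up to 0.138).

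The Isg15 tag and the member that removes it parted. Isg15, the modifier itself, was at 58.09, 52.87 and 57.13 TPM in Control culture and 148.4, 144.9 and 169.2 TPM in Egr1 culture. Usp18, the protease that removes Isg15 from proteins and dampens the interferon receptor, was at 10.22, 9.954 and 11.27 TPM against 2.379, 3.278 and 3.01 TPM. Every Egr1 library was above every control for Isg15 and below every control for Usp18, and the changes were 1.44 ± 0.08 (adjusted p = 2.4e-06) and -1.57 ± 0.12 (adjusted p = 2.21e-05). The ADP-ribosyl transferase Parp9 and its ubiquitin ligase partner Dtx3l also fell, by 1.11 and 0.74, but these genes overlap in RefSeq and reads they share cannot be assigned to either. Trim21, an antibody-binding ubiquitin ligase, fell by 0.42 (adjusted p = 0.0324). Trim25 and Parp14 were too low to test: Trim25 stayed below 0.5 TPM in each library and Parp14 was at 1.095, 1.142 and 1.381 TPM against 0.3353, 0.3394 and 0.3758 TPM.

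The 3 membrane proteins that restrict viruses summed to 646.5 to 703.3 TPM in Control culture and 548.5 to 558 TPM in Egr1 culture, and did not move together. Bst2 was at 43.58, 51.93 and 44.75 TPM in Control culture and 11.69, 12.73 and 13.48 TPM in Egr1 culture, with no overlap (-1.81 ± 0.09, adjusted p = 2.21e-06). Ifitm3 was at 185.8, 181.4 and 189.9 TPM against 82.02, 98.19 and 93.75 TPM (-1.02 ± 0.07, adjusted p = 1.32e-05). Ifitm2, its neighbour in the same family on chromosome 7, was at 473.9, 467.8 and 411.8 TPM against 464.3, 437.5 and 446.6 TPM. The Ifitm2 libraries overlapped, and the change was -0.003 ± 0.066 (adjusted p = 0.977). The sign of the Ifitm2 change turned under median-of-ratios scaling (0.11, adjusted p = 0.329). Both genes belong to a family of near-identical copies, so how reads were split between them is uncertain.

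The sensors of RNA and DNA were mixed. Ddx58 (RIG-I), which detects viral RNA ends, fell by 0.91 from 9.831 to 12.27 TPM to 4.932 to 5.803 TPM, and Eif2ak2 (PKR), the kinase that stops translation on double-stranded RNA, fell by 0.74 from 21.83 to 23.92 TPM to 12.12 to 13.86 TPM. Ifih1 (MDA5), the sensor of long double-stranded RNA, was at 7.37, 6.081 and 8.404 TPM in the controls and 9.616, 8.574 and 8.687 TPM with Egr1. All Egr1 libraries were above the controls for Ifih1, but the change of 0.27 ± 0.12 did not pass (adjusted p = 0.105), although it did under median-of-ratios scaling (0.37, adjusted p = 0.0211). Adar, which edits double-stranded RNA, overlapped between groups at 13.83 to 15.7 TPM and 12.24 to 14.3 TPM (adjusted p = 0.305).

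Each tested member of the OAS and IFIT families, which act on viral RNA, fell. Oasl1 and Oasl2 fell by 0.79 and 0.76, and Ifit1, Ifit2 and Ifit3 by 1.03, 0.54 and 0.93. Ifit1 stood at 11.99, 13.02 and 15.94 TPM in the controls and at 7.303, 5.647 and 5.627 TPM in Egr1 culture. Every Egr1 library of these 5 genes lay below every control. Oas1a and Oas2 were under 0.5 TPM throughout and were not tested.

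Of the interferon-induced GTPases, Gbp3 was by far the highest, at 50.48, 52.31 and 53.84 TPM against 28.01, 32.09 and 25.05 TPM (-0.86 ± 0.09, adjusted p = 1.34e-04). Gbp2 fell by 0.49 (adjusted p = 0.033) and Mx2 by 0.57 (adjusted p = 0.0251), and Mx1 was below 0.5 TPM in all 6 libraries. Rsad2 (viperin), which makes a chain-terminating nucleotide, fell by 0.85, and Cmpk2, a nucleotide kinase encoded next to it, fell by 0.64. Rsad2 was at 7.092, 7.287 and 9.083 TPM in the controls and 3.819, 4.073 and 3.761 TPM with Egr1. Among the other effectors Ifi35 fell by 1.34, Rtp4 by 1.09, Ifi27 by 1.08 and Ifi44 by 0.71. Ifi27, the highest of them, was at 154.8, 193.7 and 147.3 TPM against 73.76, 74.29 and 83.5 TPM.

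The calls on Trim21 and Gbp2 were lost when any of 4 of the 6 libraries was left out, and on Mx2 without Egr1 culture replicate 1 or 2. The other 23 calls, apart from Irf1, held without any library in whose fit the gene was tested. Scaling by median of ratios moved the median of all genes from -0.10 to 0.005, and the share of higher genes among those called from 34.4% to 50.5%, and with it 26 of the 30 members were below 0, 23 passed as lower and 3 as higher (Isg15, Irf1 and Ifih1).

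The ISRE letters did not part the members that fell from those that did not. Of 14 tested members with an ISRE core in the promoter table, 11 fell, 1 rose and 2 did not pass, with a median change of -0.80. Of 11 with an entry and no match, 9 fell, 1 rose and 1 did not pass, with a median of -0.74. Isg15, with 3 matches shown above, rose, and Bst2, Ifit1 and Gbp3, with 2 each, fell.

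Genes upstream of the members came from lists of known pathway genes. Of 8 tested receptors and kinases, 3 fell and none rose, against 29% of all genes tested that fell and 15.2% that rose. Jak1 was at 55.84, 54.6 and 58.82 TPM in the controls and 32.67, 34.78 and 30.35 TPM with Egr1 (-0.77, adjusted p = 6.63e-05), and Ifnar2 fell by 0.32 (adjusted p = 0.00773). Ifnar1 (36.67 to 42.4 TPM against 41.58 to 47.34 TPM, adjusted p = 0.207) and Tyk2 (adjusted p = 0.944) did not pass. Of 12 other signal transducers 9 fell, among them Irf3 (-0.61), Mavs (-0.59), the DNA-sensing adaptor Tmem173 (STING, -1.32) and the endosomal RNA receptor Tlr3 (-1.48). Of 35 other interferon-induced genes 26 fell and 1 rose. Lgals9, a secreted galectin, fell most, from 38.55 to 41.02 TPM to 5.493 to 6.87 TPM, and Irgm1, Lgals3bp and the chemokine Cxcl10 fell by 1.16, 1.82 and 1.28. The gene that rose was Slfn8 (1.22). Of 7 negative regulators 2 fell, near the share of all genes. Of the 10 interferon ligands none reached the level for a test, and Ifnb1 was at 0.2091, 0 and 0 TPM against 0, 0 and 0.4056 TPM.

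Markers of other cell types were also followed in culture. Of the microglia and macrophage markers, Aif1, Cx3cr1, C1qa, C1qb and C1qc were listed at 0 in all 6 libraries. The summed level of 12 pericyte, muscle and fibroblast markers was 5.477 to 7.143 TPM against 145.1 to 181.5 TPM, of which Dcn had a mean of 144.9 TPM in Egr1 culture. The part of these differences in the members' changes was not tested.

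At 8 weeks the question was whether cells of mice exposed on days 7 to 9 still differed. Of the 37 tested members, 5 were higher in MDZ 8w than in Control 8w (Trim25, Bst2, Irf7, Trim21 and Oasl2) and 1 was lower (Ifitm3), against 4.68% of all 15264 genes tested that were higher and 0.452% that were lower. The 5 higher members were at or near 0 in all Control 8w libraries and passed the filter only through the groups where they were high, so they had to differ and their count is a description, not support for a change of these genes as a set. The change was above 0 in 27 and below 0 in 9, against 66.1% and 31.7% of all genes. The median change of the members was 1.03, against 0.36 over all genes. In 15 members every MDZ 8w library lay above every Control 8w library and in 3 every one lay below, against 26.2% and 10.1% of all genes. Of these 15 members, 10 were listed at 0 in all Control 8w libraries and passed the filter only through the exposed groups. Their change could not be below 0, so the sign count, the median and this count are descriptions too.

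The Control 8w libraries set the form of this comparison. In all 3 of them 14 members were listed at 0, namely Irf7, Ifih1, Zbp1, Oas1a, Oas2, Oasl1, Oasl2, Bst2, Mx1, Isg20, Usp18, Trim21, Rtp4 and Ifi44. Of the 37 tested members 12 (32.4%) were so, against 17.6% of all genes tested. Of the 14, 10 were above 0 in all 3 MDZ 8w libraries. A value of 0 in a file without counts can be a failed estimate, so no fold is given against such a group, and the number of genes above 0 was lower in Control 8w over all genes. Replicate 1 also stood apart from replicates 2 and 3: 9 members were below 0.2 TPM in replicate 1 and above 1 TPM in the others (Irf1, Irf9, Eif2ak2, Ifit2, Ifitm2, Gbp3, Rsad2, Isg15 and Parp9), and 4 were above 1 TPM in replicate 1 and listed at 0 in the others (Dhx58, Dtx3l, Xaf1 and Ifi35).

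**Figure D3:**
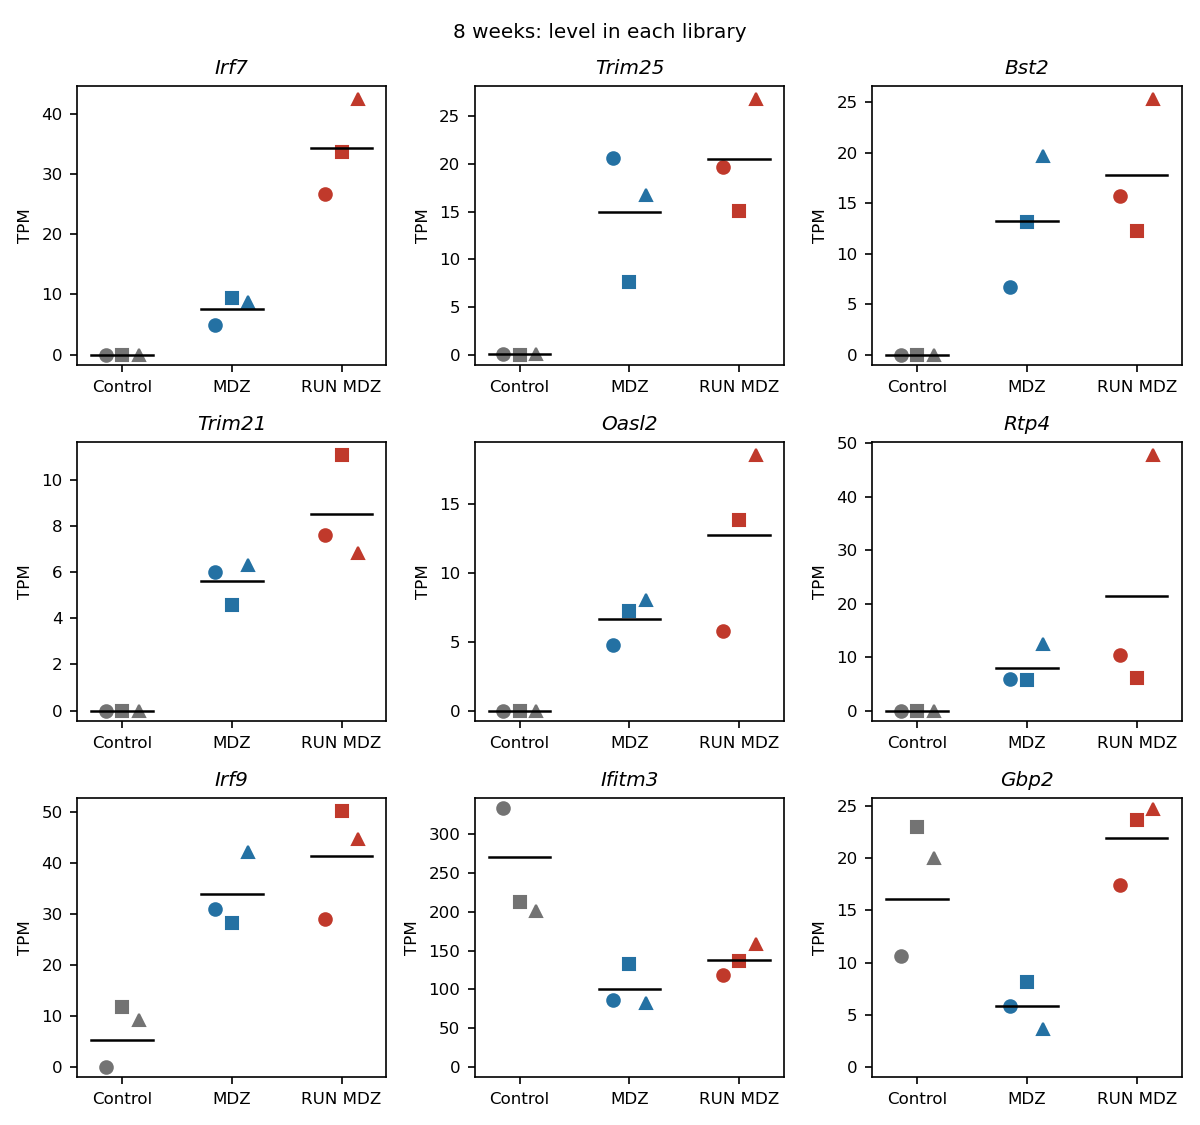
TPM of 9 members in each 8-week library (circle, square and triangle for replicates 1, 2 and 3; grey, Control 8w; blue, MDZ 8w; red, RUN MDZ 8w; each panel has its own linear axis, which includes 0). The black line is the group mean, in which Control 8w replicates 2 and 3 count as 1 sample. Irf7, Bst2, Trim21, Oasl2 and Rtp4 are at 0 in all Control 8w libraries, and RUN MDZ 8w lies above MDZ 8w in Irf7 and Gbp2.

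Irf7 was listed at 0 in all Control 8w libraries and was at 4.876, 9.371 and 8.741 TPM in MDZ 8w (adjusted p = 0.0178). Bst2, also at 0 in the controls, was at 6.721, 13.14 and 19.7 TPM (adjusted p = 0.0154). Both genes were above 0 in all MDZ 8w libraries, and a 0 in the controls is no proof of absence. Trim21 was at 6.017, 4.579 and 6.292 TPM (adjusted p = 0.0286) and Oasl2 at 4.782, 7.221 and 8.05 TPM (adjusted p = 0.0418), with the controls listed at 0 for both. Trim25, the ubiquitin ligase that switches on RIG-I, was at 0.02654, 0 and 0.05436 TPM in the controls and at 20.66, 7.585 and 16.74 TPM in MDZ 8w (adjusted p = 0.0114). The controls were at or near 0 for each of these 5 genes.

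Ifitm3 was the member that fell. It was at 334.5, 212.6 and 200.7 TPM in Control 8w and 86.18, 132.6 and 82.17 TPM in MDZ 8w, with a change of -1.42 ± 0.30 (adjusted p = 0.0363). The lowest control lay above the highest exposed library. Gbp2 moved the same way without passing, at 10.65, 22.98 and 20.08 TPM against 5.835, 8.121 and 3.605 TPM (-1.30 ± 0.54, adjusted p = 0.203).

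Other members did not pass. Irf9 was at 0, 11.7 and 9.226 TPM in Control 8w and 30.98, 28.23 and 42.1 TPM in MDZ 8w, without overlap (adjusted p = 0.08). Isg15, which rose in culture, was at 0, 25.69 and 35.2 TPM in the controls and 11.1, 20.99 and 8.252 TPM in MDZ 8w, so that the exposed libraries lay between controls. Both genes were among the 9 near 0 in Control 8w replicate 1. Stat2 (42.3 to 62.1 TPM against 48.64 to 55.02 TPM), Adar (39.2 to 100.3 TPM against 62.56 to 64.89 TPM) and Ifi27 (154.2 to 267.1 TPM against 120.4 to 208.6 TPM), which had values in each of the 9 libraries, overlapped between the groups.

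These 6 calls rested on few libraries. Leaving out MDZ 8w replicate 3 left 0 of them, leaving out replicate 1 left 1 and replicate 2 left 2, while leaving out Control 8w replicate 1 gave 12, with Control 8w then reduced to 1 sample that is assumed to vary like the other groups. Ifitm3 was also lost without any of the 3 RUN MDZ 8w libraries and Oasl2 without RUN MDZ 8w replicate 2. Under quantile normalization, which moved the median of all genes from 0.36 to -0.06, none passed and the median change of the members was -0.38.

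Upstream of the members, none of the 8 tested receptors and kinases passed: Jak1 was at 66.37, 71.2 and 63.98 TPM against 70.86, 67.87 and 63.08 TPM, and Ifnar1, Ifnar2 and Tyk2 had adjusted p-values of 0.665, 0.708 and 0.405. Irf3 and Mavs did not pass either (0.82 and 0.369). Of 15 other transducers, 1 was higher (Tlr3; 0 in all controls against 13.79, 16.42 and 16.26 TPM), and of 8 negative regulators, 2 were (Socs1, which inhibits the kinases, and Pias1, an inhibitor of the pathway). Pias1 was detected throughout, at 18.69, 17.27 and 21.5 TPM against 51.97, 51.77 and 43.39 TPM (1.32 ± 0.28, adjusted p = 0.0375). Of 46 other interferon-induced genes 3 were higher (Psmb8, Lgals9 and Herc6), a share of 6.52%. Over all genes tested 4.68% were higher. Of all 60 such interferon-induced genes, 33 to 36 were listed at 0 in a Control 8w library and 4 to 10 in one of MDZ 8w. In each Control 8w library 8 of all 17 transducers and 2 of the 8 negative regulators were listed at 0. In MDZ 8w it was 0 to 3 and 0. The counts of these lists are therefore descriptions too. All 10 interferon ligands, Ifnb1 among them, were listed at 0 in every 8-week library.

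The 8-week libraries differed in markers of other cells. Microglia markers summed to 48.96, 328.5 and 309 TPM in Control 8w replicates 1, 2 and 3, to 145.2 to 355.3 TPM in MDZ 8w and to 92.92 to 231.5 TPM in RUN MDZ 8w, with Aif1 at 0 in Control 8w replicate 1 and at 25.36 and 25.58 TPM in the others. Ependyma and choroid plexus markers summed to 0.121, 4498 and 4760 TPM in Control 8w replicates 1, 2 and 3, 33.23 to 73.65 TPM in MDZ 8w and 249.5 to 4072 TPM in RUN MDZ 8w. The Control 8w sums were nearly all Ttr, a choroid plexus gene (0.1209, 4481 and 4744 TPM), while 4 of the 6 markers (Foxj1, Ccdc153, Tmem212 and Dynlrb2, genes of cilia) were listed at 0 in all Control 8w libraries and passed as higher in MDZ 8w. Between Control 8w and MDZ 8w the sums did not overlap for radial glia and stem cells (2221 to 2507 TPM against 3448 to 5078 TPM), mature astrocytes (767.4 to 1147 TPM against 1346 to 1669 TPM), neuroblasts and immature neurons (4366 to 4572 TPM against 2392 to 3331 TPM) and pericytes, muscle and fibroblasts (2346 to 3587 TPM against 630.7 to 1343 TPM). In RUN MDZ 8w endothelial markers (1148 to 1522 TPM) lay above MDZ 8w (403.1 to 519 TPM), as did oligodendrocyte markers (2382 to 3575 TPM against 187.1 to 892.5 TPM), pericyte, muscle and fibroblast markers (2268 to 3306 TPM) and astrocyte markers (2066 to 2582 TPM). T, NK and other blood cell markers summed to at most 2.733 TPM. The part of these cells in the members' values was not tested, and in bulk RNA fewer cells of a type and less RNA per cell cannot be told apart.

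The next comparison set exposed mice with a running wheel against exposed mice without. None of the 37 tested members passed under limma, against 0.0524% of all genes tested that were higher and 0.105% lower, and 3 were higher at an unadjusted p below 0.05 and none lower (6.02% and 3.96% of all genes). The change was above 0 in 30 and below 0 in 7, against 54% and 46% of all genes. The median change of the members was 0.46, against 0.05 over all genes. The median level over all members was 7.607, 13.27 and 17.6 TPM in RUN MDZ 8w replicates 1, 2 and 3. In MDZ 8w it was 6.583, 7.543 and 8.386 TPM. Without RUN MDZ 8w replicate 3, 26 tested members were above 0 and 11 below, with a median change of 0.29. Without replicate 2 it was 25 and 11 (median 0.43), and without replicate 1 it was 32 and 5 (median 0.56). In 6 members the RUN MDZ 8w libraries all lay above MDZ 8w and in 2 all below, against 14.4% and 10.5% of all genes.

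Irf7 had the smallest p. It was at 26.74, 33.59 and 42.5 TPM in RUN MDZ 8w, against the 4.876 to 9.371 TPM of MDZ 8w. The lowest running library was above the highest sedentary one, with a change of 2.05 ± 0.48 (adjusted p = 0.173). Gbp2 was at 17.41, 23.66 and 24.74 TPM against 3.605 to 8.121 TPM in MDZ 8w, again without overlap (1.78 ± 0.48, adjusted p = 0.228), and its running libraries lay in and just above the Control 8w range of 10.65 to 22.98 TPM.

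Ifit3 (17.03, 37.32 and 37.2 TPM against 17.48, 14.05 and 8.496 TPM; adjusted p = 0.491) and Ifit1 (5.015, 22.94 and 15.91 TPM against 4.624, 5.209 and 2.255 TPM; adjusted p = 0.515) were high in replicates 2 and 3 and at the level of MDZ 8w in replicate 1. Stat2 was the lowest in p of those below MDZ 8w, at 40.89, 33.58 and 33.97 TPM against 48.64 to 55.02 TPM (-0.51 ± 0.24, adjusted p = 0.535). Irf7 passed when MDZ 8w and RUN MDZ 8w alone were fitted (adjusted p = 0.0282), with library quality weights (0.0363) and without Control 8w replicate 1 (0.0407), and Gbp2 passed with quality weights (0.0428).

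No list of the pathway held a gene that passed. Running libraries stood above MDZ 8w without overlap in 3 of 8 receptors and kinases, 4 of 15 transducers, 1 of 8 negative regulators and 16 of 46 other interferon-induced genes, against 14.4% of all genes. Ifnar1 was among them (64.14, 62.56 and 93.22 TPM against 49.4 to 51.75 TPM, adjusted p = 0.833). Jak1, Tyk2, Ifnar2, Irf3 and Mavs overlapped between the groups (adjusted p from 0.792 to 0.996).

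Running exposed mice were also set against Control 8w, a contrast that shares samples with both of the above. Of 37 tested members 7 were higher (Irf7, Trim25, Bst2, Trim21, Oasl2, Rtp4 and Irf9) and none lower, against 9.41% and 1.9% of all genes tested. Apart from Irf9, these members were at or near 0 in all Control 8w libraries and passed the filter only through the exposed groups, so that this count too is a description. The change was above 0 in 30 and below 0 in 7, against 67.5% and 31.3% of all genes. The median change of the members was 1.5, against 0.51 over all genes. Under quantile normalization the median of all genes moved to -0.09 and that of the members to -0.18, 1 member (Irf7) passed, and the share of higher genes among those called went from 83.2% to 68.5%. Groups did not overlap in 12 members that were higher and 2 that were lower, against 23% and 9.47% of all genes. Of these 12 members, 8 were listed at 0 in all Control 8w libraries and passed the filter only through the exposed groups. Their change could not be below 0, so the sign count, the median and this count are descriptions too.

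Beside the values of Irf7 above, Trim25 was at 19.65, 15.02 and 26.83 TPM in RUN MDZ 8w (adjusted p = 0.00531), Bst2 at 15.75, 12.27 and 25.33 TPM (0.00705), Trim21 at 7.607, 11.08 and 6.818 TPM (0.0104) and Oasl2 at 5.794, 13.84 and 18.56 TPM (0.0122), while Irf7 had an adjusted p of 0.0024. Rtp4, a chaperone that restrains the response, was at 10.44, 6.14 and 47.81 TPM against 0 in all controls (0.027), and MDZ 8w had it at 5.834, 5.66 and 12.45 TPM. Replicate 3 was far above the other running libraries for Rtp4. Irf9 was at 28.93, 50.16 and 44.68 TPM (3.61 ± 0.91, adjusted p = 0.0426).

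Irf9 no longer passed when any of 7 of the 9 libraries was left out, nor Rtp4 when any of 4 was, and the count of 7 became 12 without Control 8w replicate 1. When only these 2 groups were fitted, none of 37 passed. Of the pathway lists, 1 of 8 receptors and kinases was higher (Il10rb), 1 of 15 transducers (Tlr3) and 2 of 8 negative regulators (Socs1, Pias1). So were 10 of 46 other interferon-induced genes, led by the nuclear body protein Sp100 and the immunoproteasome subunit Psmb8. Over all genes tested 9.41% were higher. Of all 60 such interferon-induced genes, 33 to 36 were listed at 0 in a Control 8w library and 10 to 12 in one of RUN MDZ 8w. In each Control 8w library 8 of all 17 transducers and 2 of the 8 negative regulators were listed at 0. So were 1 to 2 of all 9 receptors and kinases. In RUN MDZ 8w it was 1 to 2, 0 to 1 and 0 to 1, in that order. The counts of these lists are therefore descriptions too. Ifnar2 (adjusted p = 0.247), Mavs (0.245), Tyk2 (0.507), Irf3 (0.619), Jak1 (0.885) and Ifnar1 (0.925) did not pass.

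At P10, 1 day after the last injection, the members were low. Of 39, 17 were at or above 1 FPKM in every library and 12 were below 1 FPKM in every one, and the highest by mean level were Ifitm2 and Ifitm3, at 10.65 to 17.28 FPKM. None of the 21 tested members passed under limma, against 0% of all 12914 genes tested that were higher and 0.00774% lower, and 2 were higher at an unadjusted p below 0.05 and none lower (8.54% and 3.65% of all genes). The change was above 0 in 20 of the 21 and below 0 in 1, against 55.9% and 44.1% of all genes, with a median of 0.12 against 0.01. With no filter 37 of all 39 were above 0. The filter passed Ifi35 and Rtp4 only through the MDZ P10 libraries (values below). The groups did not overlap in 1 member, Rtp4 which was higher, against 12.2% of all genes higher and 6.61% lower.

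**Figure D4:**
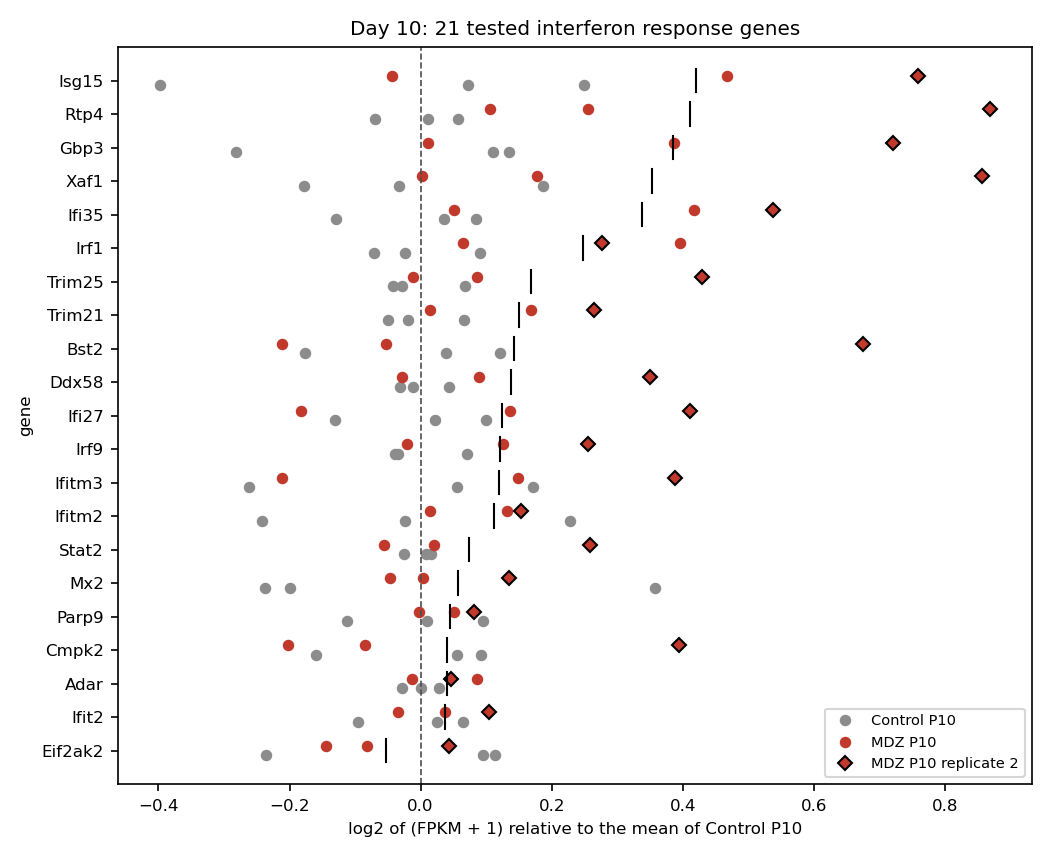
Each of the 21 tested members at day 10, as log2 of (FPKM + 1) in each library relative to the mean of the 3 Control P10 libraries (grey, Control P10; red, MDZ P10; diamond with black edge, MDZ P10 replicate 2; black bar, fitted change). MDZ P10 replicate 2 is the rightmost point for 15 of the 21 genes, and the other MDZ P10 libraries lie among the controls for most.

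MDZ P10 replicate 2 stood apart from the other libraries in these genes. It was the highest of the 6 libraries for 15 of the 21 tested members (71.4%), against 13.6% of all genes tested, and for 26 of all 39. The median log2 ratio of the tested members to the control mean was 0.35 in this library and between -0.04 and 0.09 in the other 5. Without it, 14 of 20 tested members were above 0, with a median change of 0.03. Microglia markers summed to 20.74 FPKM in this library, the lowest of the 6 (22.23 to 26.91 FPKM in the others), and its T, NK and other blood cell markers to 0.179 FPKM, within the 0.166 to 0.239 FPKM of the controls. Its relative depth of 0.793 of the deepest P10 library lay between those of the other 5 libraries, which ran from 0.57 to 1. Control P10 replicate 1 alone expressed Xist, the X-inactivation RNA of female cells (158.9 FPKM, at most 0.1855 in the others), and had the Y-linked Ddx3y at 0.03193 FPKM (at least 15.63 in the others), so that all MDZ P10 libraries were of 1 sex. Over the 6 libraries, pericyte, muscle and fibroblast markers summed to 227.8 to 272.9 FPKM in Control P10 and 160.6 to 199.1 FPKM in MDZ P10, and all 11 that were tested had a change below 0, 7 at an unadjusted p below 0.05. The 5 oligodendrocyte precursor markers all had a change above 0 (561.2 to 857.1 FPKM against 728.9 to 888.8 FPKM in sum, overlapping), and none of either list passed after adjustment. The part of any of these in the members' values was not tested.

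Several members below the level for a test were also high in this library. Usp18 was at 0.3137, 0.2606 and 0.1378 FPKM in Control P10 and 0.5835, 2.045 and 0.3125 FPKM in MDZ P10. Oasl2 was at 0.6732, 0.5004 and 0.7212 FPKM against 0.7688, 2.103 and 0.4706 FPKM, and Irf7 at 0.797, 0.5586 and 0.7177 FPKM against 0.9947, 1.787 and 0.7016 FPKM. In each of the 3 the second MDZ P10 library was the highest and the third lay in or near the range of the controls. Ifit1, Ifit3, Oas2 and Oasl1 showed the same order, at 0.655, 1.721, 0.2537 and 0.2738 FPKM in replicate 2 and at most 0.2247, 0.8713, 0.09555 and 0.05432 FPKM in any other library. Their means were below 1 FPKM, so these 7 genes were not tested.

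Of the tested members, Bst2 was at 3.216, 3.464 and 2.634 FPKM in Control P10 and 2.958, 5.553 and 2.546 FPKM in MDZ P10 (0.14 ± 0.21, adjusted p = 0.82), and Xaf1, a partner of an apoptosis inhibitor, at 1.269, 1.919 and 1.509 FPKM against 1.57, 3.645 and 1.902 FPKM (adjusted p = 0.527). Stat2 and Adar, the more constant members, stayed within 10.11 to 12.82 FPKM and 12.5 to 13.61 FPKM over the 6 libraries. Irf1 had the smallest p, at 3.412, 3.269 and 3.777 FPKM against 4.904, 4.435 and 3.69 FPKM (0.25 ± 0.10, adjusted p = 0.37). Unlike the genes above, Irf1 was highest in replicate 1 of MDZ P10, and its replicate 3 fell within the controls.

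The next 4 by p did not pass either. Ifi35 was at 0.926, 0.6617 and 0.8614 FPKM against 1.426, 1.637 and 0.8816 FPKM (0.34 ± 0.14, adjusted p = 0.397). Rtp4 was at 1.036, 0.8655 and 0.9724 FPKM against 1.337, 2.577 and 1.106 FPKM (0.41 ± 0.19, adjusted p = 0.424). Each exposed library was above each control for Rtp4 only. For Ifi35 and Rtp4 the mean of the controls was below 1 FPKM, so that both were tested only through the MDZ P10 libraries. Gbp3 (0.39 ± 0.18, adjusted p = 0.447) and Isg15 (1.274, 0.641 and 1.571 FPKM against 1.99, 2.659 and 1.098 FPKM; 0.42 ± 0.23, adjusted p = 0.493) were high in replicates 1 and 2 of MDZ P10 and within the controls in replicate 3.

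Upstream, none of 8 receptors and kinases, 12 other transducers, 7 negative regulators or 22 other interferon-induced genes passed at P10. Ifnar1 (12.7 to 14.2 FPKM over the 6 libraries), Ifnar2 (7.308 to 8.662), Jak1 (18.98 to 21.45), Tyk2 (5.576 to 6.527), Irf3 (17.78 to 21.89) and Mavs (7.561 to 9.199) varied little, with adjusted p-values from 0.484 to 0.879. Ifnb1 was listed at 0 in all 6 libraries.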

How the data were processed

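Per the labels' protocols, mRNA was captured from the sorted or cultured cells with magnetic beads and made into strand-marking libraries. The authors deposited FPKM values at P10, and TPM values at 8 weeks and in culture. Units were read from the values, since no label names them: each TPM library summed to 1000000 and each P10 library to between 241508 and 252344. Per the submitters' processing notes the build was mm10, and TopHat, Bowtie2 and DESeq2 were named with no step or version. For the counting program, its strand setting and the annotation, nothing is stated in the labels read here, so members that overlap another RefSeq gene (15 of the 39) or have near copies are uncertain.

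No read counts were used. Relative depth was estimated from the step between low values: it was 0.57 to 1 of the deepest P10 library and 0.933 to 1.04 of Egr1 culture replicate 2, and is unknown at 8 weeks.

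Each set was fitted with limma-trend (limma 3.58.1, R 4.3.3) on log2(value + 1) over genes with a mean of at least 1, with Benjamini-Hochberg adjustment over all of them and a threshold of 0.05. The 8-week groups shared an estimate of spread. The fit was tested on simulated data. Members past the threshold were named, or the 5 smallest p where fewer than 5 passed, and of the pathway lists up to 6 that passed and a fixed set, of which some results are not reported here. Slfn8, Il10rb and, in running mice, Pias1 were named after their values were seen. The members and lists were chosen with earlier results of these data known. Alternatives were pseudocounts of 0.1 and 5, other filters and scalings, library weights, a replicate block, other sets of libraries and leaving out each library. ATAC and ChIP samples of the series (10) were not analysed here.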

Additional observations from a re-analysis of the deposited data

How the results depend on the processing

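The counts of members past the threshold moved by over 1.5 times in these cases. For MDZ 8w against Control 8w, 6 became 2 with a pseudocount of 5, 0 under quantile normalization, 0 with library quality weights and 0 to 12 with a library left out. For RUN MDZ 8w against MDZ 8w, 0 became 2 with weights, 1 with only the 2 groups fitted and 0 to 1 with a library left out. For RUN MDZ 8w against Control 8w, 7 became 1 under quantile normalization, 0 with weights, 11 with Control 8w replicates 2 and 3 kept apart, 0 with only the 2 groups fitted and 5 to 12 with a library left out. In culture 27 became 17 of 20 tested when the filter asked for a mean of 5. Leaving out a library moved the culture count by less, to 23 to 25. At P10 the count stayed at 0 in every setting run. No named member that passed reversed its direction. The cause of these shifts was not tested, apart from the smaller number of members tested under the stricter filter.

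Quantile normalization also turned the median change of the members against Control 8w, to -0.38 in MDZ 8w and -0.18 in RUN MDZ 8w. With the replicate block, 26 members passed in culture, where Irf1 was lost (adjusted p = 0.0957). At 8 weeks the block was run with Control 8w replicates 2 and 3 kept apart. There 7, 0 and 8 members passed in the order above. Of all genes 1227, 14 and 2595 passed, against 1787, 122 and 2904 with the replicates apart and no block. Same-numbered samples correlated at -0.0771, 0.12 and 0.106 at P10, -0.0523 to 0.0215 in culture and -0.0155 to 0.133 at 8 weeks. Samples of different number ran from -0.216 to 0.165, -0.0469 to 0.08 and -0.109 to 0.039 in the same order. Correlations this weak cannot decide whether samples were paired, and the main fits treated the numbers as names.

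Over all genes the number called was 783 for MDZ 8w against Control 8w (19 with weights, 152 under quantile normalization, 1787 with replicates apart, 461 with a pseudocount of 5, 1410 with 0.1, 207 to 2928 with a library left out). It was 24 for RUN MDZ 8w against MDZ 8w (432 with weights, 122 with replicates apart, 360 with only 2 groups, 0 to 275 with a library left out). It was 1727 for RUN MDZ 8w against Control 8w (0 with weights, 406 under quantile normalization, 2904 with replicates apart, 0 with only 2 groups, 910 to 3952 with a library left out). In culture it was 5486 (4383 to 5012 with a library left out) and at P10 1 (0 to 5 in other settings, 0 to 101 with a library left out). Depth at 8 weeks is unknown, so a gene listed at 0 there has no known detection limit.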
